A study of Mus musculus with 67 samples.

Results

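Genes that encode RNA polymerases I, II and III, the general transcription factors and Mediator were described here in mouse preimplantation embryos. They were taken as the rows of the expression table whose symbol began with Polr1 to Polr3, Gtf2a to Gtf2h, Gtf3c, Taf with a number or Med with a number, without symbols of pseudogenes. The rule gave 100 of 26414 genes: 28 polymerase subunits, 13 general factors of polymerase II (TFIIA, TFIIB, TFIIE, TFIIF and TFIIH), 6 subunits of TFIIIC, 22 TBP-associated factors (TAFs) and 31 Mediator genes. One of the last, Med9os, is a transcript from the opposite strand of Med9 and not a subunit. The embryos were of strain C57BL/6. Embryos of the light group received light of 5000 lx during 6 h as 2-cell embryos from a full-spectrum bulb in the incubator, and those of the control group were kept dark. Cells were picked from dissociated embryos at 5 stages, and 67 SMART-seq2 libraries were made. The light group held 6 2-cell, 8 4-cell, 8 8-cell, 6 morula and 6 blastocyst libraries. The control group held 7, 6, 4, 13 and 3 libraries in the same order. The labels number the embryos but do not say which libraries share a litter or an embryo, so p-values measure the spread between these libraries.

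RNA polymerase I transcribes the large ribosomal RNA precursor, polymerase II messenger RNAs, and polymerase III transfer RNAs, 5S ribosomal RNA and other short RNAs. Some small subunits are common to all of them. Polymerase II needs general factors to find and open a promoter: TFIID, made of TBP and TAFs, binds the core promoter, TFIIA and TFIIB join it, TFIIF and TFIIE bring and hold the polymerase, and TFIIH opens the DNA and phosphorylates the polymerase. Mediator, with a head, middle, tail and a kinase module that can detach, links this machinery to factors bound at enhancers. In the mouse, the major activation of the embryonic genome takes place at the 2-cell stage, while messages stored in the oocyte are degraded.

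Each value is a read count scaled by the size factor of its library. Depth was between 836011 and 8551674 reads, of which 54.0% to 89.3% fell on the ribosomal RNA-like genes CT010467.1 and Gm42418. The members together held 3765 to 39501 reads in a library, or 0.562% to 1.46% of the reads outside those 2 genes. In the 2-cell libraries this share was 1.04% to 1.46% in the light and 0.837% to 1.16% in the control group, which overlapped. Summed values of 10 oocyte and maternal RNAs did not overlap at the 2-cell stage: 1097 to 2666 in the light and 3387 to 7071 in the control libraries, with all 10 genes detected in both groups. At the 8-cell stage these sums overlapped, at 47.5 to 134 in light and 120 to 242 in control libraries. Sums of 13 transient 2-cell genes there were 4.75 to 161 in light and 116 to 425 in control libraries. Xist was at 3.19 to 854 in light and 0 to 3.70 in control 8-cell libraries. The ratio of Gm42418 to CT010467.1 was 1.58 to 1.77 in the light 2-cell libraries and 2.34 to 4.03 in the control 2-cell libraries, and also separated the groups at the 8-cell and morula stages. Y-linked reads, summed over 5 genes, were at 10 or more in 2 of 6 light and 3 of 7 control 2-cell, 8 of 8 light and 4 of 6 control 4-cell, and 3 of 8 light and 0 of 4 control 8-cell libraries. The same held for 1 of 6 light and 0 of 13 control morula libraries, and for 6 of 6 light and 0 of 3 control blastocyst libraries. The control 4-cell library of replicate 3 correlated less well with its own group (median 0.788) than with the light 4-cell libraries (0.844), the widest such gap. By smaller gaps this also held for 3 other control 4-cell libraries, 11 of 13 control morula libraries and 1 of 3 control blastocyst libraries, and for no light library. The part of these differences between the groups in the results was not tested.

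RNA of nearly all members was detected in every group. Between 94 and 99 of the 100 members were above 1 in 50% or more of the libraries of a group. The members with the highest values per kilobase of exon, as a median over all libraries, were Polr2j (95.9 per kilobase), Polr2k (85.2), Polr2h (82.2), Gtf2f1 (74.8) and Polr1c (68.8). Of the exons of Polr2j, 15.9% overlap those of Lrwd1. The order changed with the stage. In control 2-cell libraries Polr2j (184) was followed by Gtf2a1, Med29 (162) and Med27 (145), and in control blastocysts Polr2m (48.7), Polr2e (34.2) and Gtf2f1 (33.1) were highest. Gtf2a1, the large subunit of TFIIA, had 169 per kilobase in control 2-cell libraries and 2.84 in control morulae. Among paralogs, Polr3g, the form of its polymerase III subunit known from stem cells and embryos, was measured at 29 per kilobase in control 2-cell libraries against 0.432 for Polr3gl. Another 4 genes were close to absent after the 2-cell stage: Gtf2a1l and Taf7l, paralogs known from germ cells, and Med9os each passed 1 in 7 libraries, and Polr3gl in 10. Their group medians were above 0 at the 2-cell stage only, with Med9os at 8.96 and Taf7l at 1.38 per kilobase in light. Near the floor as they were, Gtf2a1l counts among the falls to the 4-cell stage in control, and Med9os and Taf7l in light. Taf9b, the paralog of Taf9, passed 1 in 17 libraries, and Taf9 was not analysed here.

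The normalised levels of the members were lower from the 8-cell stage on. In control embryos the median of the members' medians was 78.2 in 2-cell, 93.3 in 4-cell and 49.8 in 8-cell embryos, 39.6 in morulae and 28.9 in blastocysts. In light embryos the same medians were 118, 101, 59, 36.9 and 18.5. The stage with the highest median was the 2-cell stage for 40 members and the 4-cell stage for 48 in control embryos, against 60 and 34 in light embryos. The blastocyst was the lowest stage for 44 members in control and for 80 in light embryos. These levels depend on the deposited scaling, and the highest and lowest stages were not counted over all genes. In light against control blastocysts the median log2 fold change was -0.66 over the members and -0.64 over all genes. The members' median share of reads outside CT010467.1 and Gm42418 was 1.11% in control 4-cell and 1.08% in control 8-cell embryos, and 1.17% and 1.08% in those under light. It was 0.842% in control and 0.923% in light morulae, and 0.666% in control and 0.680% in light blastocysts. From the 4-cell to the 8-cell stage the median log2 fold change of all genes was -0.56 in control and -0.45 in light embryos, and 0.04 and -0.04 under median-ratio scaling.

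**Figure D1:**
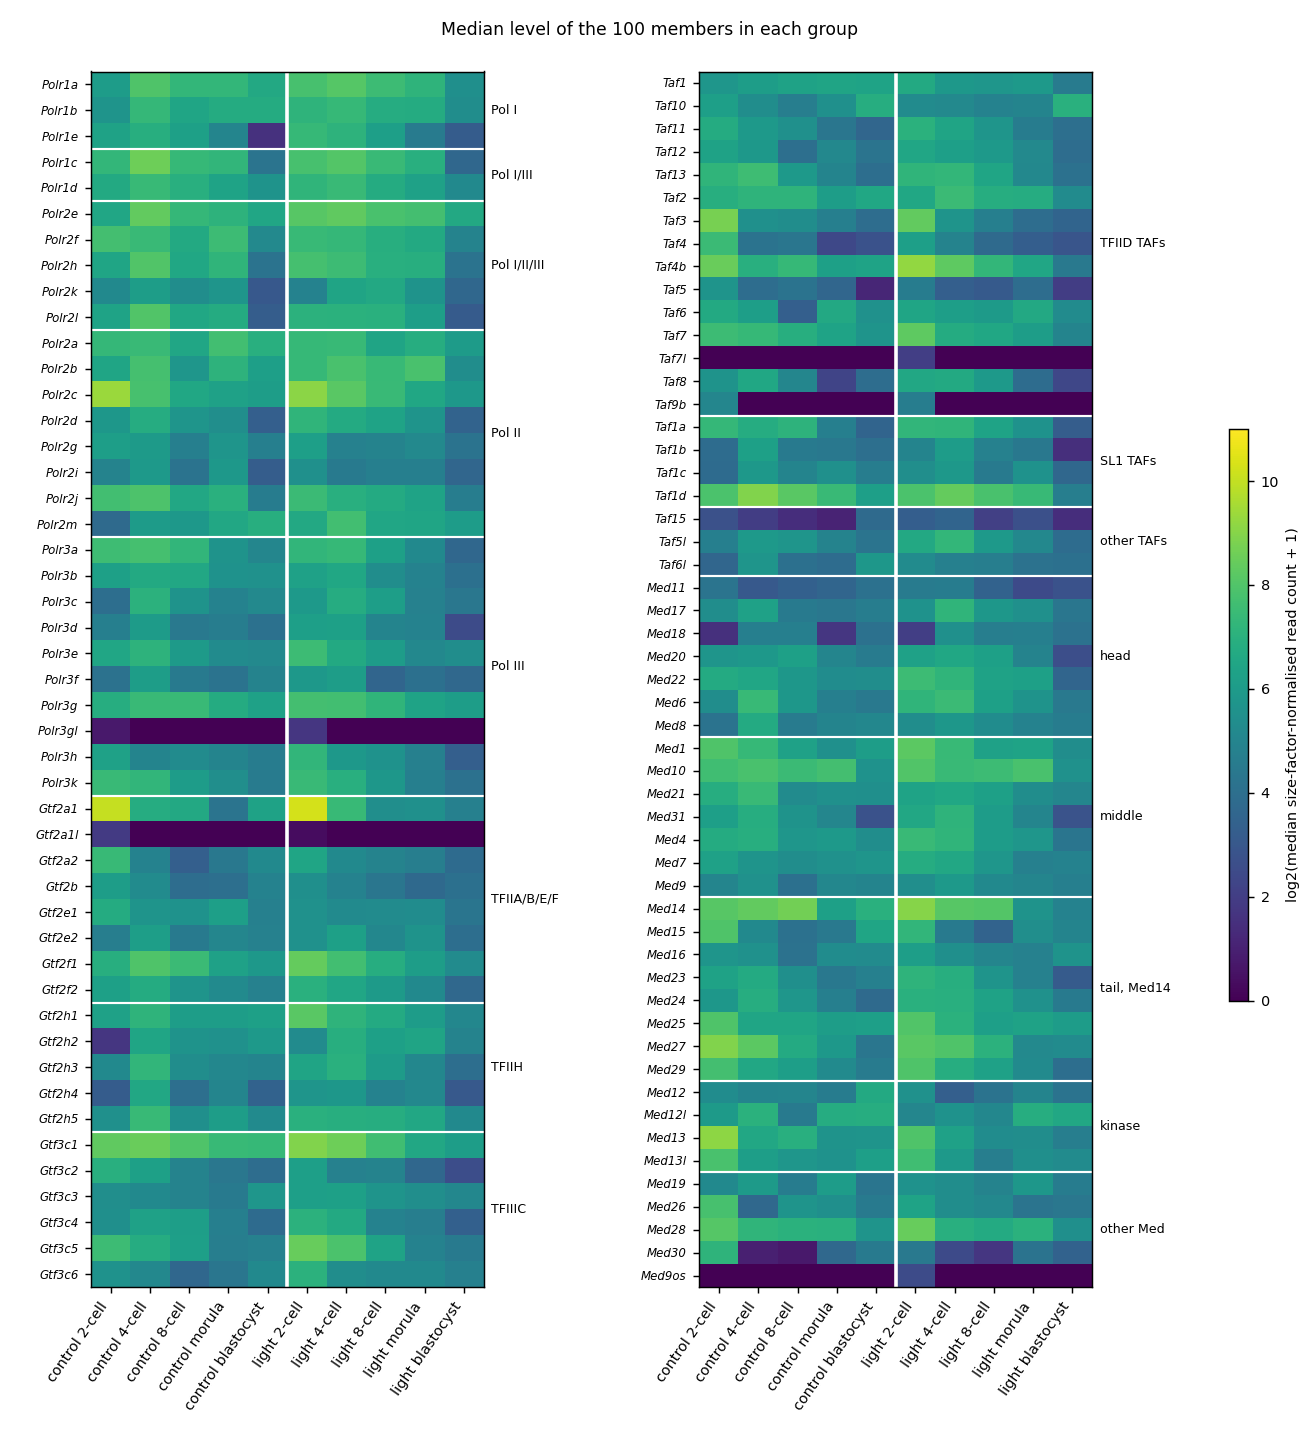
Heat map of the 100 members (rows, grouped by complex) in the 10 groups (columns, control on the left of each panel and light on the right). Colour is log2 of the group's median size-factor-normalised read count plus 1; most rows are brightest at the 2-cell or 4-cell stage and darkest at the blastocyst, and Polr3gl, Gtf2a1l, Taf7l, Taf9b and Med9os are dark in nearly every column.

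At the 2-cell stage, closest to the exposure, RNA for 6 polymerase subunits and 2 TFIIH subunits, among others, was higher in the light libraries, and RNA for 3 Mediator subunits, 1 TFIID subunit and 1 TFIIIC subunit was lower. Of 100 members tested, 15 were called higher and 5 lower by limma (adjusted p under 0.05, at least 2-fold), against 10.5% of all genes called in either direction, 5.53% higher and 4.96% lower. The median log2 fold change was 0.57 over the members and 0.00 over all genes tested, and 75 of 100 members were above 0. By class, 6 of 28 polymerase subunits were called higher and 0 lower, 3 of 13 general factors of polymerase II were higher and 0 lower, and 2 of 6 TFIIIC subunits were higher and 1 lower. Among the TAFs 3 of 22 were higher and 1 lower, and in Mediator 1 of 31 was higher and 3 lower. The groups did not overlap for 7 members, 5 higher and 2 lower in light, where 4.15% of all genes did not overlap.

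The largest rise among the members was that of a subunit of TFIIH, the factor that opens promoter DNA and also serves in nucleotide excision repair. Gtf2h2, a core subunit of TFIIH, lay between 11.7 and 101 in the light libraries (median 39.2) and between 0 and 10.4 in the control libraries (median 2.38). The groups did not overlap, and 3 of the 7 control libraries were at 0 (log2 fold change 3.81, standard error 0.81, limma adjusted p = 0.00212). Gtf2h1, another core subunit, lay between 212 and 675 in the light libraries (median 293) and between 16.7 and 244 in the control libraries (median 77.1). All but the highest control library lay below the lowest light library (log2 fold change 2.30, standard error 0.43, limma adjusted p = 0.000664). Gtf2h3, Gtf2h4 and Gtf2h5 had log2 fold changes of 1.23, 1.92 and 1.13, with adjusted p = 0.120, 0.0784 and 0.0848, and were not called. Gtf2f1, the large subunit of TFIIF, lay between 201 and 491 in the light libraries (median 337) and between 40.1 and 254 in the control libraries (median 117). It was called higher although the ranges met (log2 fold change 1.47, standard error 0.36, limma adjusted p = 0.00704).

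Among the polymerases, called genes came from all 3 enzymes. Polr2h, a small subunit common to all of them, lay between 171 and 300.0 in the light libraries (median 216) and between 10.3 and 116 in the control libraries (median 86.5). There was no overlap (log2 fold change 1.99, standard error 0.48, limma adjusted p = 0.00689). Polr1b, the second largest subunit of polymerase I, lay between 102 and 249 in the light libraries (median 142) and between 15.6 and 99.97 in the control libraries (median 51). Here too the groups were apart (log2 fold change 1.66, standard error 0.43, limma adjusted p = 0.0107). Polr3d, a subunit of polymerase III, lay between 60.1 and 113 in the light libraries (median 73.2) and between 8.33 and 52.4 in the control libraries (median 26.1), again without overlap (log2 fold change 1.72, standard error 0.49, limma adjusted p = 0.0208). Polr2m (GRINL1A), which associates with polymerase II as an additional subunit, rose by 2.40, Polr2b, its second largest subunit, by 1.58, and Polr2e, another common subunit, by 1.35 on the log2 scale. Polr2a, the largest subunit of polymerase II, was at 113 to 372 (median 165) in light and 93.1 to 381 (median 159) in control libraries, with a log2 fold change of 0.02 (adjusted p = 0.982). TFIIIC, which recruits polymerase III to transfer RNA genes, had Gtf3c5 (1.42) and Gtf3c4 (1.33) higher and Gtf3c2 (-1.14) lower. Of the exons of Gtf3c2, 38.9% overlap those of Gm29609, and the counting is not stated to use strand.

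Besides Gtf3c2, the genes called lower were of Mediator and TFIID. Med30, a metazoan Mediator subunit, lay between 1.67 and 35.2 in the light libraries (median 21) and between 91.3 and 203 in the control libraries (median 142). Every light library was below every control library (log2 fold change -3.03, standard error 0.51, limma adjusted p = 0.000239). Taf4, a histone-fold subunit at the core of TFIID, lay between 34.6 and 107 in the light libraries (median 72.8) and between 111 and 236 in the control libraries (median 179). Again no library overlapped (log2 fold change -1.49, standard error 0.36, limma adjusted p = 0.00634). Its paralog Taf4b, known from the germ line, was called in the other direction (log2 fold change 1.04, standard error 0.31, limma adjusted p = 0.0244), with values of 375 to 1057 (median 595) in light and 149.7 to 483 (median 361) in control libraries. Med13, which joins the kinase module to Mediator, fell by 1.16 and Med26, which recruits elongation factors, fell by 1.50 on the log2 scale. Med6, a head subunit, was the only Mediator member called higher (log2 fold change 1.69, standard error 0.42, limma adjusted p = 0.00845), and its ranges were apart (118 to 194 with median 147 in light, 14.5 to 111 with median 40.6 in control). Taf7, a TFIID subunit that contacts Taf1, rose by 1.18 and Taf5l, a subunit of the SAGA-type coactivators, by 1.90.

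Of the 20 calls, 11 held whichever of the 13 libraries was left out, and 9 did not. Without light replicate 15, Med13 kept its direction but missed the fold limit (log2 fold change -0.99). Polr2b was lost without control 9 or 10 or light 10 or 12 (adjusted p 0.0515 to 0.0806), Taf4b without control 8 or 9 or light 10 or 14 (0.0536 to 0.0800), and Med26 without control 11 or 12 or light 12 or 16 (0.0588 to 0.0782). Taf7 was lost without control 8, 9 or 10 or light 14, 15 or 16 (0.0593 to 0.108), and Gtf3c5 without control 8, 9 or 10 or light 10, 12, 14 or 16 (0.0576 to 0.0989). Gtf3c4 was lost without control 8, 9, 10 or 12 or light 10, 12, 14 or 16 (0.0503 to 0.123), and Taf5l without control 8, 9, 10 or 12 or light 9, 10, 12 or 14 (0.0562 to 0.109). Gtf3c2 held only without control 9 or light 10, with adjusted p of 0.0508 to 0.0961 without any other.

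**Figure D2:**
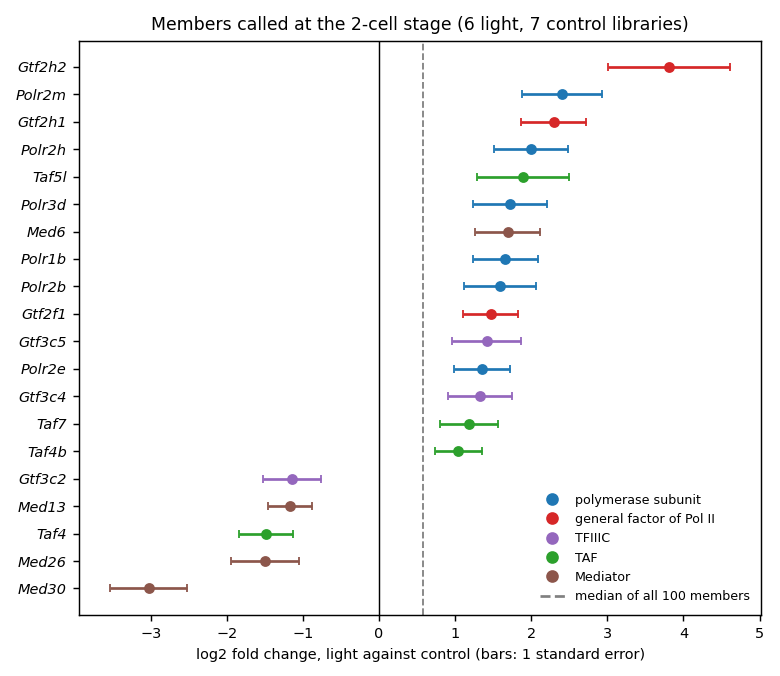
Log2 fold change of light against control 2-cell libraries (x axis) for the 20 members called (y axis), coloured by class, with bars of 1 standard error and a dashed line at the median of all 100 members. Gtf2h2 stands at 3.81 and Med30 at -3.03, and polymerase and general factor genes lie only on the right.

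The promoters of the members whose change from the 2-cell to the 4-cell stage differed between the groups (values follow) are shown where a single start is listed, to give the sequence beside genes that moved. The bases are the 120 before the start, from RefSeq on GRCm38.p6, 5′ to 3′ on the gene's strand, at chr13:100492395-100492514, minus strand for Gtf2h2, chr7:46795974-46796093, plus strand for Gtf2h1, chr17:57011289-57011408, minus strand for Gtf2f1, chr2:179976647-179976766, minus strand for Taf4 and chr8:72548311-72548430, minus strand for Med26. Capitals mark matches, on either strand, to GGGCGG, which SP1 binds, CCGGAAG, which ETS factors bind, the E-box CACGTG, the TATA box, searched as TATAAA, the CCAAT box, or GGATTA, which OTX and OBOX proteins bind.
Gtf2h2: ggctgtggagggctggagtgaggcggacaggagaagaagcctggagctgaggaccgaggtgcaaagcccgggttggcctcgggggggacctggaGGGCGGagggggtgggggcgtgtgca
Gtf2h1: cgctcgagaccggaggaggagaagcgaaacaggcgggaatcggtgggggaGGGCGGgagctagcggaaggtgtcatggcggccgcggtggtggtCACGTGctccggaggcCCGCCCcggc
Gtf2f1: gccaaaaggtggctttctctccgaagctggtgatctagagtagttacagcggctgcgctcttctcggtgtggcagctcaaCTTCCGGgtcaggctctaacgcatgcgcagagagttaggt
Taf4: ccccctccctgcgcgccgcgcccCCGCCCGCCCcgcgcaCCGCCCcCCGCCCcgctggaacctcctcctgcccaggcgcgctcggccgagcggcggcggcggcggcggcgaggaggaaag
Med26: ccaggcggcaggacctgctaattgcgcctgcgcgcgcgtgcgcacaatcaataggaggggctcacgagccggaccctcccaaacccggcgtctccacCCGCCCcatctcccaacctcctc
All but Gtf2f1 hold the SP1 letters, Gtf2f1 holds the ETS letters and Gtf2h1 an E-box, and none of the 5 holds TATAAA in this window. Promoters were matched for 86 of the 100 members, searched over the 250 bases before each listed start, and 27.9% of these members held CCGGAAG. The same letters were in 14.0% of the 11923 genes tested at the 2-cell stage that had a promoter and in 7.83% of all 27025 genes listed. The share with GGGCGG was 60.5%, 58.8% and 35.4%, with TATAAA 15.1%, 8.49% and 14.3%, with CACGTG 15.1%, 9.31% and 6.86%, with CCAAT 34.9%, 40.5% and 37.5%, and with GGATTA 6.98%, 6.67% and 7.21%, in the same order.

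From the 2-cell to the 4-cell stage in control embryos, more polymerase and TFIIH messages rose than fell. More TAF, Mediator and TFIIA messages fell than rose. In control embryos 18 of 97 members rose and 18 fell, where 46.1% of all genes were called, 13.9% higher and 32.3% lower. The all-gene median moved by -0.72 and the members' median was 0.08, with 69 of 97 members above the all-gene median. Polymerase subunits rose in 8 of 27 and fell in 1, and the general factors of polymerase II rose in 5 of 13 and fell in 3. TAFs rose in 2 of 21 and fell in 5, and Mediator genes rose in 3 of 30 and fell in 8. In both of these classes the share that fell was below the 32.3% of all genes. The largest rise was that of Gtf2h2 (log2 fold change 5.10, standard error 0.73, limma adjusted p = 7.18e-06), followed by Polr3c, a polymerase III subunit (2.72), Taf1b, which acts in the polymerase I factor SL1 (2.72), and Med8 of the Mediator head (2.63).

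The largest fall in control embryos was that of Med30. It went from 91.3 to 203 (median 142) to 0 to 3.93 (median 0.981) (log2 fold change -6.16, standard error 0.55, limma adjusted p = 1.69e-08). Taf9b went from 11.9 to 80.2 (median 32.4) to 0 to 0.852 (median 0) and stayed at a median of 0 in every later group (log2 fold change -4.75, standard error 0.63, limma adjusted p = 3.11e-06). Both stood apart at the 2 stages without overlap, as did 3 members that were higher and 12 that were lower at the 4-cell stage in all, beside 20.4% of all genes. Gtf2a1 dropped from 970.1 to 1438 (median 1057) to 73.7 to 163 (median 109.9) (log2 fold change -3.37, standard error 0.28, limma adjusted p = 6.16e-09). Taf3, the TFIID subunit that binds trimethylated histone H3 lysine 4, had a log2 fold change of -3.48, Taf4 one of -3.69, Med26 one of -3.40 and Med15, a tail subunit, one of -3.16. Without control 4-cell replicate 3, 29 of the 36 calls remained: Med28, which missed the fold limit, and Taf5 (-1.29), Gtf3c2 (-0.90), Polr1a (1.24), Polr1b (1.32), Polr2m (1.43) and Med18 (2.26) were no longer called.

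In light embryos the same step brought fewer rises: 5 of 99 members rose and 22 fell, where 7.44% of all genes rose and 29.0% fell and the all-gene median was -0.56. In this step 7 members, all lower, did not overlap, beside 13.0% of all genes. Gtf2h2 (1.61), Med18 of the head (3.12) and Taf1b (1.58) rose in both groups, which is 16.7% of the control rises and 60% of the light rises. In both groups 12 members fell, or 66.7% of the control and 54.5% of the light falls, among them Gtf2a1 (-2.76 in light), Taf3 (-2.59), Taf9b (-2.95) and Med15 (-3.21). The share of all genes called in both groups was not counted, so this sharing is not shown to be particular to the members. Under median-ratio scaling the split of the 5 rises and 22 falls turned to 13 and 10, so the direction of the balance depended on the scaling.

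The change over this step differed between the groups for 7 members by an interaction term, where 3.08% of all genes were called. In light, 4 had the lower change: Gtf2h2 (difference -3.48, adjusted p = 0.0158), Gtf2h1 (-2.32, 0.0298), Polr2h (-2.15, 0.0434) and Gtf2f1 (-1.78, 0.0362). At the 4-cell stage the groups overlapped for all 4 genes. Gtf2h2 was at 75.5 to 173 (median 119.8) in light and 39.3 to 252 (median 86.6) in control 4-cell libraries, and Polr2h at 173 to 275 (median 184) and 88.9 to 315 (median 257). Gtf2h1 fell in light (-1.16, adjusted p = 0.00474) and had a change of 1.16 in control (adjusted p = 0.0699). The other 3 had the higher change in light: Med30 (4.08, 0.0221), Med26 (2.68, 0.0346) and Taf4 (2.44, 0.0298). Med30 ended at 0 to 27 (median 4.47) in light and 0 to 3.93 (median 0.981) in control 4-cell libraries. All 7 were kept without control 4-cell replicate 3 and under median-ratio scaling, but not under every other setting. Med26 was lost with edgeR (adjusted p = 0.108) and DESeq2 (0.0997), and Polr2h with no filter (0.0629). With a pseudocount of 0.1 the calls of Med30 (0.160), Polr2h (0.0589), Taf4 (0.0520) and Med26 (0.0513) were lost, and with 1 fit over all libraries those of Taf4 (0.0596) and Gtf2f1 (0.0537). Gtf2h2 and Gtf2h1 were called under each of these settings. The 2-cell comparison, the control step and this test share the control 2-cell libraries, and their values are not independent of each other. In no later step did a member pass the same test by limma (0 of 96, 0 of 95 and 0 of 96), with 14, 13 and 14 members at an unadjusted p under 0.05. DESeq2 called 5, 3 and 0, and edgeR 2, 0 and 0. Of all genes, 3.81%, 2.62% and 1.57% were called by limma, and the shares by DESeq2 and edgeR are not given here.

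**Figure D3:**
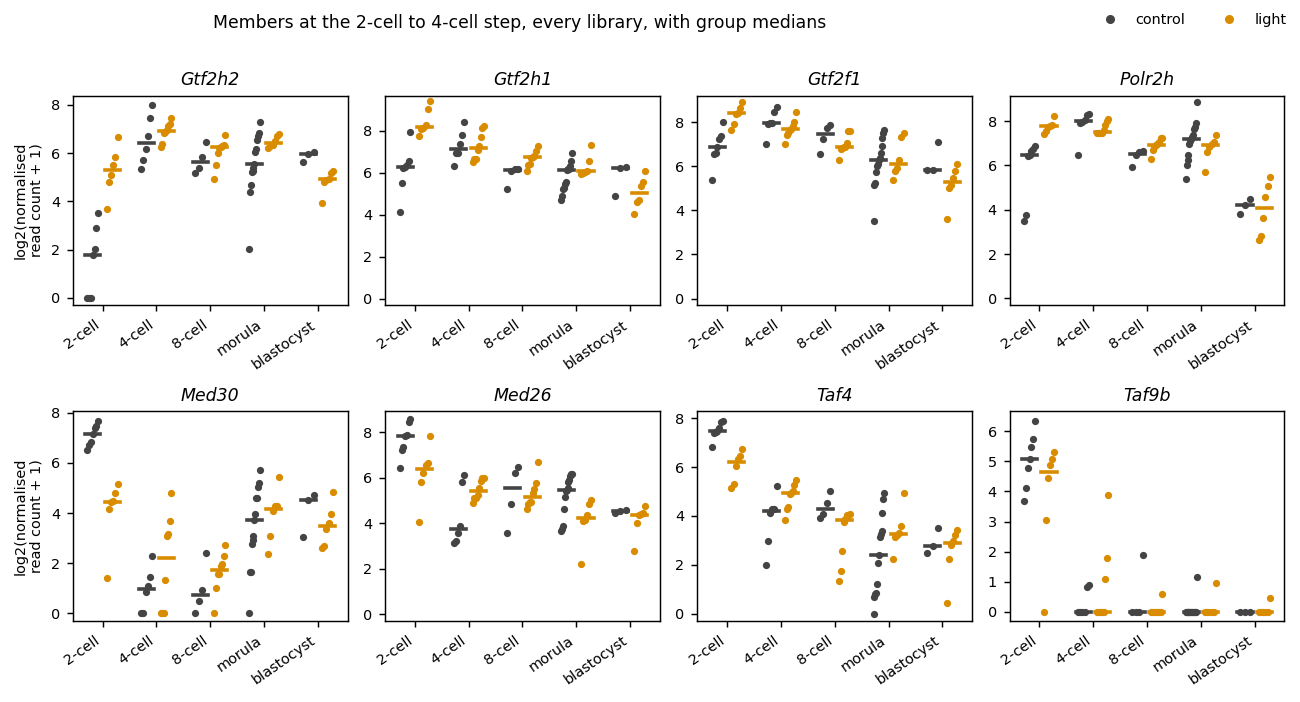
Log2 of the size-factor-normalised read count plus 1 (y axis) by stage (x axis) for 8 members, with 1 point per library, ordered by value within each group, and a line at the group median. The upper row shows Gtf2h2, Gtf2h1, Gtf2f1 and Polr2h, whose median is higher in light than in control at the 2-cell stage, and the lower row Med30, Med26, Taf4 and Taf9b, each with its highest library among the control 2-cell libraries.

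At the 4-cell stage few members differed. Taf4b (log2 fold change 1.54, standard error 0.36, limma adjusted p = 0.0313) and Polr2m (log2 fold change 1.47, standard error 0.36, limma adjusted p = 0.0371) were called higher in light, 2 of 96 members, where 1.45% of all genes were called and 1.12% were higher. Taf4b was at 259 to 508 (median 310.5) in light and between 44.3 and 393 in control libraries, and Polr2m at 111 to 278 (median 199.8) and 41.3 to 171 (median 64). Both pairs of ranges overlapped, as did those of all other members at this stage, where 0.560% of all genes were apart. Both calls depended on single libraries: Polr2m was lost without any of 11 of the 14 libraries (all but control 1 and 3 and light 6), with adjusted p of 0.0532 to 0.0748, and Taf4b without control 5 or 6 or light 9, 11, 13 or 14 (0.0567 to 0.0742). Without control replicate 3 the count was 4.

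At the 8-cell stage 6 of 95 members were higher and 1 lower in light, where 9.20% of all genes were called, 5.91% higher and 3.29% lower, with a members' median of 0.36 beside 0.16 for all genes. Taf6, a histone-fold TFIID subunit, lay between 39.1 and 162 in the light libraries (median 63) and between 6.26 and 33.3 in the control libraries (median 9.17), without overlap (log2 fold change 2.55, standard error 0.47, limma adjusted p = 0.00124). Of its exons, 26.5% overlap those of Ap4m1. In control embryos Taf6 then rose towards the morula (log2 fold change 2.64), where the light group had 0.38. Gtf2h5, the smallest subunit of TFIIH, lay between 76.1 and 159 in the light libraries (median 116) and between 32.5 and 62 in the control libraries (median 44.1) and was also apart (log2 fold change 1.37, standard error 0.32, limma adjusted p = 0.00732). Polr2b (1.44), the common subunit Polr2k (1.44), Med17, the scaffold of the Mediator head (1.49), and Gtf2a2, the small subunit of TFIIA (1.73), completed the rises. Med13 was lower in light (-1.68), as it was at the 2-cell stage, with 7.61 to 67.8 (median 39.4) in light and 72 to 186 (median 121) in control libraries, which were apart. Of the 95 members, 3 were higher and 1 lower without overlap, beside 5.61% of all genes.

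Taf6, Gtf2h5 and Polr2b at the 8-cell stage held whichever library was left out. Polr2k was lost without control 4 (adjusted p = 0.0708), Med13 without control 1 or 4 (0.0786 to 0.0912), and Med17 without control 1 or 3 or light 6, 8, 10 or 12 (0.0560 to 0.122). Gtf2a2 was lost without control 1, 2 or 3 or light 5, 6, 7, 8, 9 or 10 (0.0544 to 0.126) and under median-ratio scaling.

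At the morula stage no member of 95 was called by limma, edgeR or DESeq2, with 11, 11 and 16 members at an unadjusted p under 0.05. Of all genes, 1.18% were called, 0.355% higher and 0.822% lower, and 0.553% did not overlap between the groups, as 0 of the 95 members did. The members' median was 0.17 and that of all genes 0.10.

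At the blastocyst stage 4 of 95 members were called lower and 0 higher, where 5.33% of all genes were called, 0.354% higher and 4.98% lower. The all-gene median was -0.64 and the members' median -0.66. The all-gene shift rested on the scaling: median-ratio scaling gave a median of -0.10 with 125 genes called higher and 144 lower, beside 45 and 634 with the deposited one, edgeR a median of -0.04 and DESeq2 one of 0.01 with 252 higher and 214 lower. Without control blastocyst replicate 2 the calls over all genes went from 679 to 84. Med12, the kinase module subunit that activates CDK8, lay between 2.1 and 38.1 in the light libraries (median 17) and between 96.7 and 199 in the control libraries (median 101) (log2 fold change -3.06, standard error 0.63, limma adjusted p = 0.0101). Med14, the backbone that joins the Mediator modules, lay between 17.1 and 60.3 in the light libraries (median 28.8) and between 80.5 and 210.0 in the control libraries (median 125) (log2 fold change -2.05, standard error 0.48, limma adjusted p = 0.0183). Taf1, the largest TFIID subunit, lay between 11.8 and 45.6 in the light libraries (median 23.1) and between 60.4 and 124 in the control libraries (median 82.6) (log2 fold change -1.93, standard error 0.51, limma adjusted p = 0.0303). Polr1b lay between 23.6 and 54.3 in the light libraries (median 40.8) and between 74.5 and 199 in the control libraries (median 108) (log2 fold change -1.59, standard error 0.45, limma adjusted p = 0.0409). All 4 were without overlap, as were 14 of the 95 members (1 higher and 13 lower), beside 12.5% of all genes. Only Med12 was called after median-ratio scaling (log2 fold change -2.41, adjusted p = 0.0454), and so by edgeR (-2.31). DESeq2 called Med12 lower (-2.27) and Med16 and Polr1e higher. Med12 was also the 1 call kept whichever library was left out: Med14 was lost without control 2 or 3 (adjusted p 0.0800 to 0.0914), Taf1 without control 1 or 2 or light 13, 24 or 26 (0.0524 to 0.185), and Polr1b without control 1 or 2 or light 15, 24, 26 or 29 (0.0532 to 0.270).

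Med12, Med14 and Taf1 lie on the X chromosome, as do 5 of the 100 members, of which these 3 were tested at the blastocyst stage. Over all 413 X-linked genes tested there the median log2 fold change was -1.46 and 27.8% were called lower, against -0.62 and 4.20% of 12257 autosomal genes. The Y-linked sum was 17.5 to 58.9 in the light and 0.348 to 0.642 in the control blastocysts, without overlap, and Xist was at 7.20 to 187 and 24.4 to 558. Summed inner cell mass markers were at 159 to 227 in light and 317 to 1899 in control blastocysts, with 6 and 9 of 9 genes above 1 by median, and trophectoderm markers at 2934 to 7333 and 498 to 7312. Primitive endoderm markers summed to 295 to 458 in light and 513 to 1019 in control blastocysts, with 7 of 9 genes above 1 by median in both. The light treatment, the sex chromosomes and the cell type of these blastocyst libraries cannot be told apart. At the 4-cell stage, where all 8 light libraries held Y-linked reads and 4 of 6 control libraries did, Med12 had a log2 fold change of -1.56 (adjusted p = 0.208), Med14 -0.10 and Taf1 -0.63, and none was called. Over all X-linked genes tested at that stage the median was -0.34 and 1.06% were called lower, against 0.14 and 0.284% of autosomal genes.

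**Figure D4:**
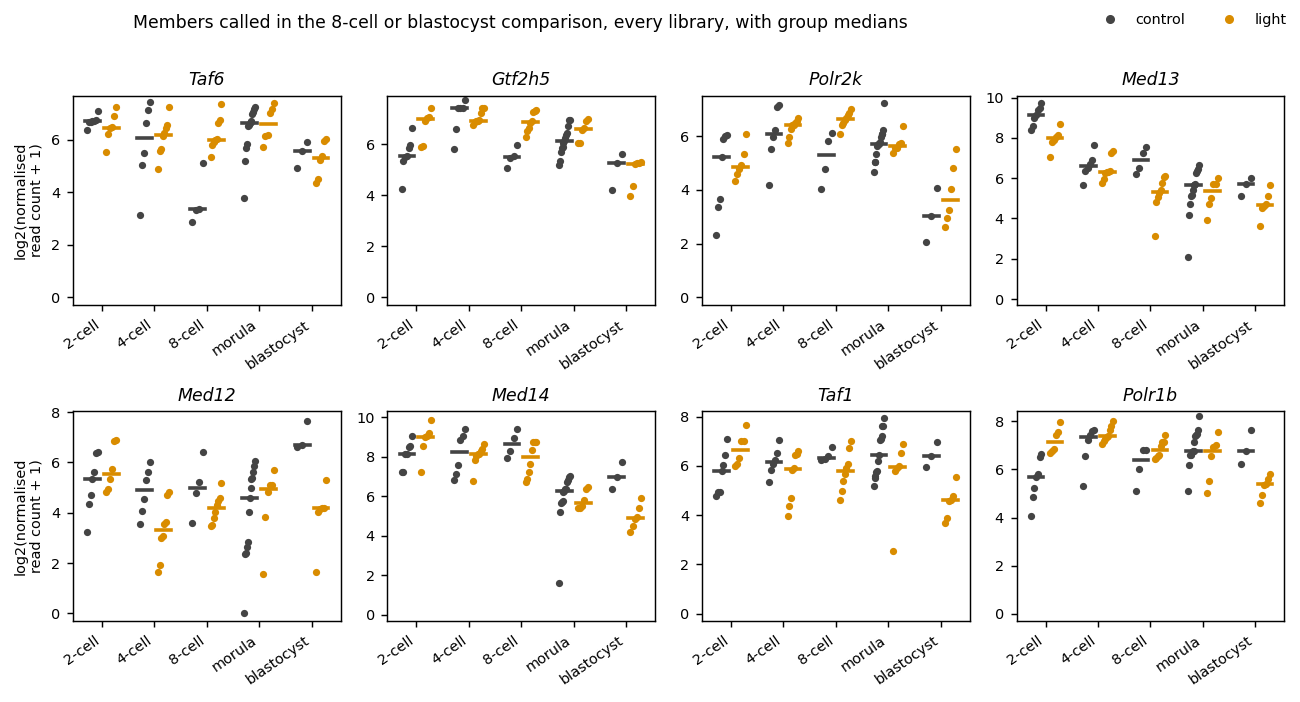
Log2 of the size-factor-normalised read count plus 1 (y axis) by stage (x axis) for 8 members called at the 8-cell or blastocyst stage. There is 1 point per library, ordered by value within each group, and a line at the group median. Polr2b, Med17 and Gtf2a2, also called at the 8-cell stage, are not drawn. Light 8-cell libraries lie above control for Taf6 and Gtf2h5, and light blastocysts below control for Med12, Med14, Taf1 and Polr1b.

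In later steps the called members mostly fell, except in control from the 8-cell stage to the morula. From the 4-cell to the 8-cell stage 3 of 95 members fell in control (Gtf2h4 -2.34, Gtf2h3 -1.82, Med27 -1.54), where 6.32% of all genes were called, 1.14% higher and 5.18% lower, and 5 members, all lower, did not overlap, beside 6.79% of all genes. In light 20 of 96 fell and 11 members were lower without overlap, where 10.5% of all genes were called, 0.620% higher and 9.93% lower, and 2.20% did not overlap. The falls in light took in 3 of 6 TFIIIC subunits (Gtf3c4 -1.72, Gtf3c5 -1.49, Gtf3c1 -1.04) and the polymerase III subunit Polr3f (-2.69). These counts moved with the processing. Median-ratio scaling left 0 falls in control and 3 in light (Gtf2a1, Gtf3c4 and Polr3f), and without control 4-cell replicate 3 the control count was 13. Each control call at this step was lost without several control 8-cell libraries: Gtf2h4 without 1, 3 or 4 (and without 4-cell replicate 3), Gtf2h3 without 1, 3 or 4, and Med27 without 1, 2 or 3, with adjusted p up to 0.158.

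From the 8-cell stage to the morula, Med14 fell in both groups, from 244 to 665 (median 404) to 2.11 to 131 (median 75.4) in control (log2 fold change -2.73, standard error 0.64, limma adjusted p = 0.00385) and by 2.05 on the log2 scale in light. Med12l, the paralog of Med12, rose in both, by 2.53 in control and 1.70 in light, and Polr3a, the largest subunit of polymerase III, fell in both (-1.63 and -1.19). In all, 3 members rose and 2 fell in control, and 3 rose and 13 fell in light, where 6.84% rose and 7.49% fell of all genes in control, and 4.60% and 7.21% in light. Without overlap were 1 rise and 1 fall in control, beside 5.02% of all genes, and 6 falls in light, beside 3.58%. Polr3a was lost in control without any 1 of the 4 8-cell libraries (adjusted p 0.0672 to 0.139) and Med19, a rise of 2.19, without 8-cell replicate 1 (0.181).

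From the morula to the blastocyst, several small subunits of the polymerases fell in both groups. In control 9 of 95 members fell and 1 rose, beside 5.12% and 6.74% of all genes, and 7 of the 9 were polymerase subunits. Without overlap were 1 rise and 7 falls, beside 7.88% of all genes. Polr2l went from 70.8 to 699 (median 107) to 3.16 to 17.4 (median 8.35) (log2 fold change -3.83, standard error 0.58, limma adjusted p = 6.80e-05), with no overlap. Polr2f (-2.97), Polr2h (-2.92) and Polr2k (-2.69), which like Polr2l serve all 3 polymerases, Polr1c, shared by polymerases I and III (-2.77), and Polr2j (-2.86) and Polr2i (-1.88) of polymerase II were the others. In control, Polr2a (-0.52) and Polr2b (-0.96), the largest subunits of polymerase II, were not called, and the median of all genes was 0.28. In light 38 of 95 members fell and 1, Taf10, rose (1.78), beside 15.7% and 5.01% of all genes and an all-gene median of -0.45, with 16 falls without overlap beside 8.23%, and median-ratio scaling reduced the 38 falls to 17. Polr2l (-2.56), Polr2f (-2.33), Polr2h (-2.72), Polr2j (-2.02) and Polr1c (-3.08) were called in light under both scalings. So were Polr2b (-2.43) and Polr1a (-1.89), which are large subunits, while Polr1b and Polr3a were called under the deposited scaling alone. Of the exons of Taf10, 45.9% overlap those of Ilk. For Polr2i 26.8% overlap those of Tbcb, for Med31 26.3% those of 4930563E22Rik and for Polr2j 15.9% those of Lrwd1. Med12 was the 1 rise in control (2.97), lost without any 1 of the 3 control blastocysts (adjusted p 0.119 to 0.203). Med10, 92.8% of whose exons overlap Gm26819, was lost without 1 of them (0.0532, replicate 1), Med31 likewise (0.0605, replicate 1), and Polr2i without 2 (0.231 to 0.252, replicates 1 and 3).

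**Figure D5:**
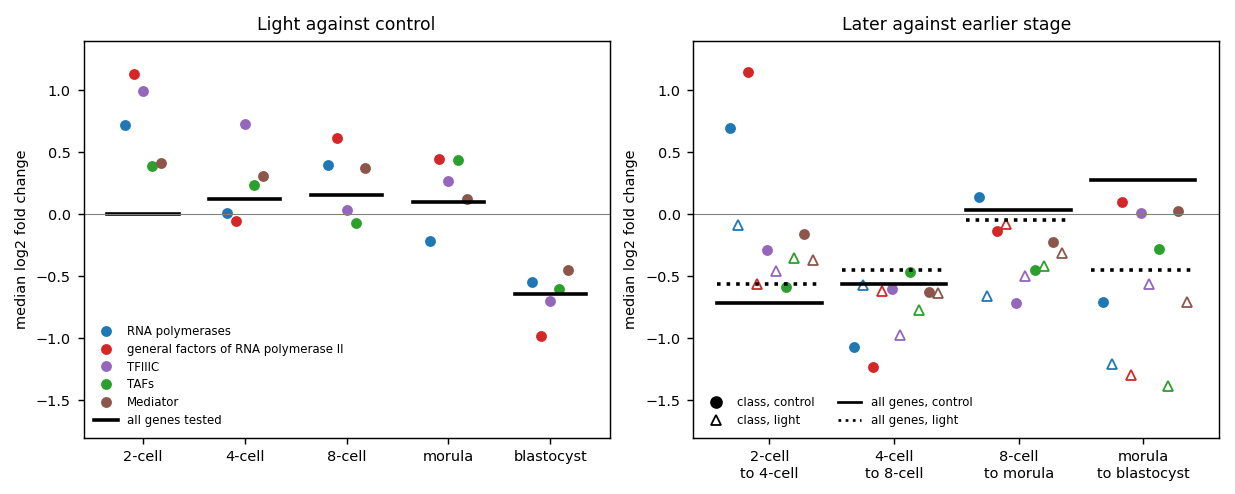
Median log2 fold change (y axis) of each class of members, for light against control at the 5 stages (left) and for each stage against the one before (right, filled circles for control and open triangles for light, in the colours of the left panel). Black lines are the medians of all genes tested, solid for the left panel and for control on the right and dotted for light; at the 2-cell stage all 5 classes lie above the line, and at the blastocyst all lie below 0 with it.

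Partners that the symbols of the rule leave out were listed too, 52 genes of which 51 were tested. In light 2-cell libraries 9 were higher and 3 lower, where 10.5% of all genes were called, 5.53% higher and 4.96% lower. The Mediator kinase Cdk8 was lower (log2 fold change -1.08, standard error 0.33, limma adjusted p = 0.0297), as Med13 was, while its cyclin Ccnc was higher (log2 fold change 1.92, standard error 0.61, limma adjusted p = 0.0384). In the polymerase I set Ubtf (1.67), which binds ribosomal DNA, and the subunit Cd3eap (2.34) were higher. In the polymerase III set the subunit Crcp was higher (2.28) and Brf1, of the factor TFIIIB, lower (-1.96). The mitochondrial RNA polymerase Polrmt (2.97) and its factor Tfam (3.48) were higher, and of 21 pausing and elongation factors Ctr9, Ccnt1 and Nelfcd were higher and Hexim1, an inhibitor of the elongation kinase P-TEFb, lower (-1.55). None of the 5 kinase, cyclin and helicase subunits of TFIIH was called at this stage, with Cdk7 at 1.09 (adjusted p = 0.119).

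Tbp itself, the TATA-binding protein around which TFIID forms, was not called at the 2-cell stage (log2 fold change 0.68, standard error 0.35, limma adjusted p = 0.222), with 150.2 to 425 (median 224) in light and 75.9 to 250.5 (median 157) in control libraries, which overlapped. Tbpl2, the oocyte paralog, had a median of 0.283 in light 2-cell libraries and 0 in every other group. At the 8-cell stage the paralog Tbpl1 was higher in light (log2 fold change 3.16, standard error 0.85, limma adjusted p = 0.0202): the control libraries reached only 0.926, and the light libraries were at 0 to 32.4 (median 10.8). Ccnc (1.39) and the TFIIH helicase Ercc3 (1.78) were also higher there, and Cdc73 and Nelfa lower. In all, 3 of 51 partners were called higher and 2 lower at the 8-cell stage, where 9.20% of all genes were called. No partner was called by limma at the 4-cell, morula or blastocyst stage, where 1.45%, 1.18% and 5.33% of all genes were.

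For 18 members no light against control comparison, step or interaction gave a call by limma: among them were Gtf2b, which encodes TFIIB, Gtf2e1 of TFIIE, Gtf2f2 of TFIIF, Polr3b, Polr3e and Polr3g of polymerase III, and Med7, Med21, Med16 and Med24 of Mediator. How many of all genes had no call in any comparison was not counted, so 18 has no background here.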

How the data were processed

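Single cells of 67 embryo libraries were sequenced by SMART-seq2. The submitters' processing notes name HISAT2, HTSeq 0.9.1 and mm9. The deposited table holds a normalised signal per gene: its values are whole reads divided by a size factor per library (at least 99.97% within 0.01 of a whole read, and 11 genes not whole), although the study's methods speak of RPKM. Reads were recovered from it for edgeR 4.0.16 and DESeq2 1.42.0. Strand of the counting is not given in the sources used here. Libraries were grouped by their labels, and 24 rows with symbols turned into dates were left out.

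Log2(value + 1) was fitted by limma 3.58.1 (lmFit and eBayes with trend, R 4.3.3) over the genes above 1 in at least 3 libraries of a comparison with both directions tested, and p-values were adjusted by Benjamini-Hochberg over all genes tested. A call needed an adjusted p under 0.05 and a change of 2-fold or more. Fold changes on this scale understate changes of low genes. The script was tested on simulated data. No pair of libraries was alike within sampling noise.

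Members named are the called ones with the largest changes and a mean of at least 10, all called in the interaction of the first step, fixed members of each role and paralog pairs. Other called members and the X-linked and Y-linked genes were named after their values were seen. The members and lists were chosen with earlier results of these data known. Lengths, exon overlaps and chromosomes come from GRCm38, a later build than mm9. Promoters come from RefSeq. Alternatives were another pseudocount, no filter, median-ratio scaling, edgeR, DESeq2, 1 fit over all libraries, a block for the replicate number, and leaving out single libraries.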

Additional observations from a re-analysis of the deposited data

Results flagged for a closer look

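In 13 of 200 groups of 4 to 10 libraries tested for a named member, the lowest library stood apart from the rest by Dixon's test, which chance does in about 1 in 20 groups. The numbers are its value, the group's median and the gap to the next library as a share of the group's range. Gap and range are on the log2(value + 1) scale, while the value and the median are not. Gtf2h1 in control 8-cell replicate 3 was at 36 beside 69.2 (gap 0.901), and Gtf2h2 in light blastocyst replicate 29 was at 14.4 beside 29.3 (gap 0.646). Gtf3c2 in control 4-cell replicate 3 was at 29.6 beside 76.3 (gap 0.66), and Med12 in light blastocyst replicate 15 was at 2.1 beside 17 (gap 0.655). Med13 in light 8-cell replicate 5 was at 7.61 beside 39.4 (gap 0.575), and Med14 in light 4-cell replicate 14 was at 110.3 beside 281 (gap 0.565). Med17 in light morula replicate 9 was at 17 beside 44.9 (gap 0.704), and Med26 in light morula replicate 9 was at 3.63 beside 18 (gap 0.669). Med26 in light blastocyst replicate 15 was at 5.78 beside 19.7 (gap 0.632), and Med30 in light 2-cell replicate 15 was at 1.67 beside 21 (gap 0.731). Polr2h in control 4-cell replicate 3 was at 88.9 beside 257 (gap 0.783), and Polr2m in light morula replicate 12 was at 15.7 beside 88.7 (gap 0.65). Taf1 in light morula replicate 9 was at 4.84 beside 61.3 (gap 0.747). Light morula replicate 9 was the lowest for 3 of these genes, and light blastocyst replicate 15 and control 4-cell replicate 3 for 2 each.

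The change from the 2-cell to the 4-cell stage differed between light and control by limma's interaction term for 7 members. The differences in log2 fold change, light less control, were Gtf2f1 -1.78, Gtf2h1 -2.32, Polr2h -2.15, Gtf2h2 -3.48, Med30 4.08, Taf4 2.44, Med26 2.68.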

How the results depend on the processing

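Counts of members called depended on the processing as follows, and the cause was not tested unless stated. The shares of all genes called under each setting are not given beside them. At the 2-cell stage no filter gave 12 light against control calls beside 20. At the 4-cell stage no filter and edgeR gave 0, at the 8-cell stage no filter gave 4, and at the morula stage 1 fit over all libraries gave 3. At the blastocyst stage a pseudocount of 0.1, no filter and 1 fit gave 2 each, and median-ratio scaling and edgeR 1 each. Of the control steps, 4-cell to 8-cell gave 1 with a pseudocount of 0.1, 0 with no filter, median-ratio scaling, edgeR and DESeq2, and 17 with 1 fit. The step to the morula gave 11 with median-ratio scaling, 10 with DESeq2 and 19 with 1 fit, and the step to the blastocyst 17 with DESeq2 and 20 with 1 fit. Of the light steps, 4-cell to 8-cell gave 3 with median-ratio scaling, 2 with edgeR, 3 with DESeq2 and 6 with 1 fit, and morula to blastocyst 19, 18 and 20 with median-ratio scaling, edgeR and DESeq2. The split of light 2-cell to 4-cell calls, 5 higher and 22 lower, was 13 and 10 with median-ratio scaling, 11 and 10 with edgeR, and 17 and 8 with DESeq2. The interaction of the first step gave 3 with a pseudocount of 0.1 and 13 with DESeq2. That of 4-cell to 8-cell gave 2 with median-ratio scaling, 2 with edgeR, 5 with DESeq2 and 1 with 1 fit, that of the step to the morula 3 with DESeq2 and 1 with 1 fit, and that of the step to the blastocyst 2 with 1 fit.

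With 1 library left out, the light against control counts ran from 14 to 24 at the 2-cell, 0 to 4 at the 4-cell, 4 to 7 at the 8-cell, 0 to 0 at the morula and 1 to 5 at the blastocyst stage. In steps and interactions, only the 4 control 8-cell and 3 control blastocyst libraries and control 4-cell replicate 3 were left out, and no morula library. The control steps ran from 0 to 13 for 4-cell to 8-cell, 4 to 4 for 8-cell to morula and 6 to 9 for morula to blastocyst. The later interactions ran from 0 to 4, 0 to 1 and 0 to 0. Both the 13 and the 4 came without control 4-cell replicate 3, chosen after seeing the data. Leaving out control 4-cell replicate 3 from the first step, an alternative chosen after seeing the data, gave 31 calls in control and 9 in the interaction.

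With the replicate number as a block, the counts were 0 at the 2-cell and 4-cell stages and in the control steps 4-cell to 8-cell, 8-cell to morula and morula to blastocyst, and in light 0, 1 and 3 for the first 3 steps. Taf1b turned to -0.055 in the light 2-cell to 4-cell step. Libraries with the same number share only a number: their deviations correlated by -0.09 to 0.07, and the block leaves few libraries to estimate the spread.

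The 3 control blastocyst and 4 control 8-cell libraries limit what these comparisons can show, as does the low depth outside CT010467.1 and Gm42418.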
